A study of Mus musculus with 10 samples.

Results

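Tac1, Calca and Calcb, the mouse genes of substance P and of the alpha and beta forms of calcitonin gene-related peptide (CGRP), were followed through 10 pools of hand-picked sensory neurons of the vagus nerve. The members were the rows that carry these symbols, 3 of the 24421 rows of each pool's count table. All 3 were counted in every pool, with 10 counts as the lowest value. The pools form 5 groups of 2 replicates. In the Trpv1 selection, red fluorescent neurons were picked from Trpv1-tdTomato mice, which carry Cre recombinase under Trpv1 and a CAG-driven tdTomato reporter at the ROSA26 locus, so a red neuron has expressed Trpv1 at some time. It gave Trpv1+ nodose, Trpv1+ jugular and Trpv1- (not red) nodose pools, all from 2 mice. The Trpv1- pools held fewer neurons than the Trpv1+ pools. In the capsaicin selection, neurons of C57BL/6 mice without any transgene were first tested for a rise in intracellular calcium. Its nodose pools held neurons that responded to capsaicin, the agonist of the TRPV1 channel, and to α,β-methylene ATP, which opens P2X channels, and its jugular pools held neurons that responded to capsaicin alone. Nodose neurons were taken from the caudal end of the fused ganglion and jugular neurons from the rostral end, in every group. Ages of the animals were not given in the sources used here. The selections also differed in strain, sequencing core, depth and neurons per pool, and these cannot be told apart. Each capsaicin pool held fewer neurons than a Trpv1+ pool. Nothing says that replicate pools came from separate animals, so p-values measure the spread between these pools, which may be technical.

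Substance P and CGRP are the classical peptides of small nociceptive neurons. They are cut from larger precursors, stored in dense-core vesicles and released both centrally and from the peripheral endings, where they widen vessels, make them leak and act on smooth muscle, the events known as neurogenic inflammation in the airways and gut. Substance P acts through the tachykinin receptor Tacr1, and CGRP through the receptor Calcrl together with the accessory protein Ramp1. Tac1 also encodes neurokinin A, and Calca gives either calcitonin or CGRP by alternative splicing. A count per gene therefore does not say which of those products a transcript encoded.

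By the annotation of GENCODE vM21 on GRCm38 (mm10), Tac1 lies on the plus strand at chr6:7554879-7565834. Calca lies on the minus strand at chr7:114631478-114636357, and Calcb lies near it on the plus strand at chr7:114718643-114723365. All 3 are protein-coding. The CGRP genes are paralogs, so the sequence they share is shown first, since reads from it could be counted under either gene. The stretch runs over 90 coding bases, from base 227 of the Calca and base 230 of the Calcb coding sequence, and lies in the part that encodes the peptide. Capitals mark the bases that differ.
Calca: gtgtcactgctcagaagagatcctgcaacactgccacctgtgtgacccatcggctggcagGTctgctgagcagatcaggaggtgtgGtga
Calcb: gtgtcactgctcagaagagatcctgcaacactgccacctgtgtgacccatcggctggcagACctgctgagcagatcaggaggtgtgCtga
Of these 90 bases 87 were identical (96.7%), with a longest identical run of 60. Outside this part the transcripts differed enough to be separated. Of the 1678 different 50-base words in the Calca transcripts, 12 (0.715%) occurred exactly in Calcb and 55 (3.28%) occurred there with up to 2 mismatches, the number the aligner allowed. For Calcb the shares were 12 of 1260 words (0.952%) and 57 words (4.52%). None of the 3442 words of Tac1 occurred in another gene. How the authors' counting divided the shared words is not given in the sources used here.

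The bases before the RefSeq start sites of Tac1 and Calca are shown because both genes were high in the same pools. Each run is 250 bases on GRCm38.p6, at chr6:7554811-7555060 (plus strand) for Tac1 and chr7:114636358-114636607 (minus strand) for Calca. Capitals mark the motif TGACG on either strand, the core of the cAMP response element, and CACGTG, a form of the E-box.
Tac1: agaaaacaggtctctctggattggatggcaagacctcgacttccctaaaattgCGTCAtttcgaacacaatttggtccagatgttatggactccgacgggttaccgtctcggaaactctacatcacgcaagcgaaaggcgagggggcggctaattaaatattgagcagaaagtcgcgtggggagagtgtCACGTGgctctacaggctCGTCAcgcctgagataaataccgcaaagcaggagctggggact
Calca: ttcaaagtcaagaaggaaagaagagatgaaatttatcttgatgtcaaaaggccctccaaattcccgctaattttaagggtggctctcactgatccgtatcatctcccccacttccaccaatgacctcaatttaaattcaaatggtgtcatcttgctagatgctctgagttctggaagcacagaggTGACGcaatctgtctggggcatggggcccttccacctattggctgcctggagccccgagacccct
The Tac1 run held 2 matches to TGACG, at 197 and 43 bases before the start, and 1 match to CACGTG at 61 bases before it. The Calca run held 1 match to TGACG, at 65 bases before the start, and none to CACGTG. Other forms of the E-box were not searched. TGACG occurred in 17.8% and CACGTG in 6.02% of all 32851 RefSeq promoters over the same 250 bases. The full element TGACGTCA, which holds TGACG and its reverse and occurred in 1.55% of promoters, and TATAAA, which occurred in 12.4%, had no match in either run. These are matches of letters only. Variants of TATAAA were not counted here, and the Tac1 run holds the letters ATAAATA near its end (gagataaataccgc). GENCODE starts Tac1 inside the run shown.

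Before the members are described, levels of marker genes are set beside the labels. Levels are given as normalised CPM, the counts of a gene divided by size factors that put all 10 pools on a common scale and expressed against a common library total. The 5 neuron markers each reached 10 CPM in both pools of every group. The nodose marker P2rx2 was at 61.4 to 548 CPM in the nodose pools and at no more than 0.235 CPM in the jugular pools, and Hoxb5 was at 233 to 417 CPM and at no more than 0.196 CPM. Prdm12, a marker of neural crest-derived sensory neurons, was at 22.2 to 147 CPM in the jugular pools and at no more than 0.190 CPM in the nodose pools. The capsaicin pools were picked in part by their response to a P2X agonist, so P2rx2 is not free of that selection. The study reported Hoxb5 and Prdm12 from these same pools, so neither is an independent check of the labels. Glial markers were present in every group, with a summed level of 572 to 808 CPM in Trpv1+ nodose, 641 to 659 in Trpv1+ jugular, 697 to 813 in Trpv1- nodose, 449 to 827 in capsaicin nodose and 294 to 605 in capsaicin jugular pools. All 3 immune markers were at 0 in every pool, and of the 3 endothelial markers only Pecam1 had any counts, in 1 pool. Total counts ran from 148452506 to 167704327 in the Trpv1 selection and from 17666710 to 30810863 in the capsaicin selection. At these totals 3 counts correspond to 0.0179 to 0.0202 and to 0.0974 to 0.170 plain CPM, so the lowest levels are less certain in the capsaicin selection. These floors cover counting error only.

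Tac1 marked the jugular pools. In the Trpv1 selection Tac1 was at 860 and 670 CPM in the Trpv1+ jugular pools, at 0.767 and 0.191 CPM in the Trpv1+ nodose pools and at 0.220 and 0.221 CPM in the Trpv1- nodose pools. Among capsaicin-selected neurons it was at 1080 and 249 CPM in the jugular pools and at 0.667 and 0.585 CPM in the nodose pools. The 4 jugular pools were all high, the 6 nodose pools were all below 1 CPM, and no pool fell between. The low nodose levels rest on 149, 39, 57, 53, 16 and 10 counts. In the order of means, Trpv1+ jugular (765 ± 134, SD, n = 2 for this and all means) stood beside capsaicin jugular (664 ± 588). Capsaicin nodose (0.626 ± 0.0579) and Trpv1+ nodose (0.479 ± 0.407) overlapped. Trpv1- nodose (0.221 ± 0.000628) lay within the range of the Trpv1+ nodose pools.

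Calca was the more graded gene. It was at 2921 and 3022 CPM in the Trpv1+ jugular pools, at 232 and 365 CPM in the Trpv1+ nodose pools and at 0.668 and 0.868 CPM in the Trpv1- nodose pools. Among capsaicin-selected neurons it was at 2950 and 741 CPM in the jugular pools and at 119 and 2.34 CPM in the nodose pools. Every jugular pool lay above every nodose pool, but the Trpv1+ nodose pools carried a level of Calca that the Trpv1- pools did not approach. The means ran from Trpv1+ jugular (2971 ± 71.6) and capsaicin jugular (1846 ± 1562), which overlapped, through Trpv1+ nodose (298 ± 94.0) and capsaicin nodose (60.5 ± 82.2) to Trpv1- nodose (0.768 ± 0.141). In bulk pools, fewer neurons that express a gene and less RNA per neuron cannot be told apart.

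Calcb had a different order. It was highest in the capsaicin jugular pools, at 2028 and 2933 CPM, followed by the Trpv1+ jugular pools, at 923 and 898 CPM. The capsaicin nodose pools stood at 1.79 and 605 CPM, on both sides of the Trpv1+ nodose pools at 129 and 124 CPM. The Trpv1- nodose pools were lowest in the mean, at 0.537 and 8.97 CPM. As for the other members, no nodose pool reached a jugular pool. The means were 2480 ± 639 in capsaicin jugular, 910 ± 17.7 in Trpv1+ jugular, 303 ± 426 in capsaicin nodose, 126 ± 3.79 in Trpv1+ nodose and 4.76 ± 5.97 in Trpv1- nodose. Neighbours in this order overlapped only for capsaicin nodose and Trpv1+ nodose, and the capsaicin nodose range also took in the level of 1 Trpv1- pool.

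**Figure D1:**
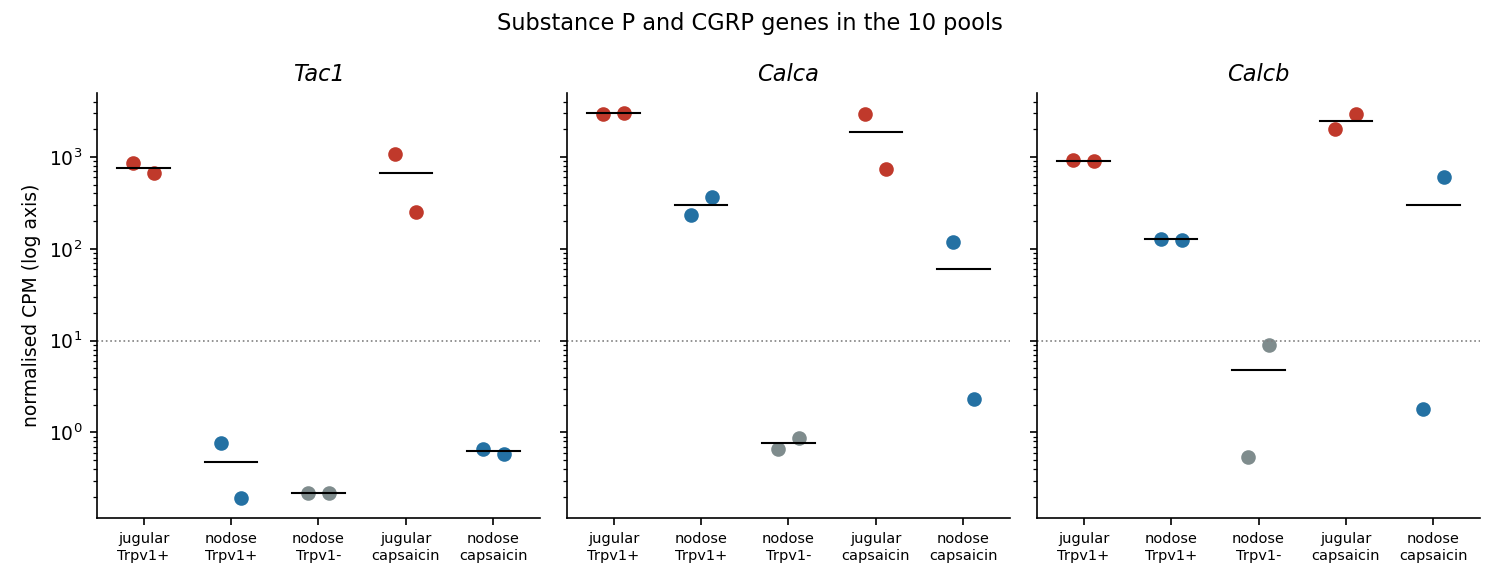
Normalised CPM (log axis) of Tac1, Calca and Calcb in each of the 10 pools, by group, with red points for jugular, blue for nodose and grey for Trpv1- nodose pools, black lines for group means and a dotted line at 10 CPM. The jugular points of Tac1 lie between 249 and 1080 CPM and its nodose points below 1 CPM, while the Trpv1+ nodose points of Calca and Calcb lie between 124 and 365 CPM.

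To set genes side by side, levels were divided by the merged exons of all annotated transcripts (3399 bases for Tac1, 1684 for Calca, 1264 for Calcb). This length can exceed that of the transcripts present, which would lower a value. Per kilobase of exon, the Trpv1+ jugular pools held Calca at 1764 ± 42.5 CPM per kb, Calcb at 720 ± 14.0 and Tac1 at 225 ± 39.5. The capsaicin jugular pools had Calcb at 1962 ± 506, Calca at 1096 ± 928 and Tac1 at 195 ± 173. Tac1 was the lowest of the members in each jugular group per kilobase of this length, and also in mean CPM. In the Trpv1+ nodose pools Calca was at 177 ± 55.8 and Calcb at 99.99 ± 2.995 CPM per kb, against 0.141 ± 0.120 for Tac1.

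The first comparison asked which genes differ between jugular and nodose C-fiber neurons picked by the Trpv1 reporter. All 3 members were higher in jugular neurons by edgeR's quasi-likelihood test, where a call needed an adjusted p no higher than 0.1, a fold of 2 or more and at least 10 CPM in both pools of a group. Of 10990 genes tested, 0.318% were called and 0.136% were called higher in jugular. The log2 fold change of Tac1 was 10.65 ± 0.95 (SE, adjusted p = 0.0453). It was 3.32 ± 0.26 for Calca (adjusted p = 0.0361), a fold of 9.99. It was 2.85 ± 0.21 for Calcb (adjusted p = 0.0312), a fold of 7.24. Tac1 thus had a far larger ratio than the CGRP genes, whose nodose levels were above 100 CPM. The calls were lost when any 1 of the 4 pools was left out (adjusted p of 0.220 to 0.704, with 0 genes called in each of those fits), while the direction was kept. DESeq2 called 459 genes in this comparison, Tac1 among them (log2 fold change 10.62, adjusted p = 3.44e-09), and gave adjusted p = 0.110 for Calca and 0.194 for Calcb, which were not called. Glial markers summed to 572 and 808 CPM in these nodose pools against 641 and 659 in the jugular pools. The ribosomal RNA gene Rn45s took 8.54% to 10.3% of all counts from Trpv1+ nodose pools and 2.65% to 3.38% from the other pools of this selection, and its part in the differences was not tested.

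The same comparison in the capsaicin selection gave the same directions with a much wider spread. Tac1 was 1080 and 249 against 0.667 and 0.585 CPM, and its log2 fold change of 10.34 ± 1.24 had an adjusted p of 0.162. The log2 fold change of Calca was 5.09 ± 1.96 (adjusted p = 0.352) and that of Calcb 3.57 ± 2.08 (adjusted p = 0.650). No member was called by edgeR, nor was any of the 8181 genes tested (0%), of which 1150 had an unadjusted p under 0.05. DESeq2 called 734 genes, with Tac1 among them (adjusted p = 0.000292). Without the second jugular pool of this selection edgeR called Tac1 (log2 fold change 11.01, adjusted p = 0.000465) and Calca (5.74, adjusted p = 0.0902). The log2 fold change of Calca was 10.11 without the first nodose pool and that of Calcb 10.62 without the second, and neither was called (adjusted p = 0.104 and 0.108). The fibroblast marker Dcn was at 239 and 16.97 CPM in these jugular pools and at 38.4 and 0 CPM in the nodose pools, with Col1a1 and Lum at 0 in all 4, and its part in the differences was not tested. Jugular and nodose pools did not overlap for any of the members here, but neither did they for 23.7% of the 5124 genes compared in this direction.

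The spread between pools of the capsaicin selection differed by gene. In the jugular pools Tac1 differed 4.35-fold, Calca 3.98-fold and Calcb 1.45-fold, and the pool with more Tac1 and Calca was the pool with less Calcb. In the nodose pools Calca differed 50.7-fold and Calcb 337-fold, in opposite directions. Among 5947 genes at a mean of 10 CPM or more in those nodose pools, 1.56% differed more between the pools than Calcb did, and 33.1% differed more than Calca. In the Trpv1+ jugular pools the members differed 1.28-fold, 1.03-fold and 1.03-fold, in the order Tac1, Calca, Calcb.

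The Calca and Calcb levels were added after these values had been seen, so the sum is a description with no test. It was 3843 and 3919 CPM in the Trpv1+ jugular, 4978 and 3674 in the capsaicin jugular, 361 and 489 in the Trpv1+ nodose, 120 and 607 in the capsaicin nodose and 1.21 and 9.84 in the Trpv1- nodose pools. Pools of the capsaicin jugular group differed 1.36-fold in the sum, less than in either gene alone. The capsaicin nodose pools differed 5.04-fold. The share of Calcb in the Calca and Calcb counts per kilobase of exon was 29.6% and 28.4% in the Trpv1+ jugular pools. It was 42.6% and 31.1% in the Trpv1+ nodose pools. It was 47.8% and 84.1% in the capsaicin jugular pools. In the capsaicin nodose pools it was 1.97% (95% interval 1.43% to 2.65%, exact binomial) and 99.7% (99.6% to 99.8%). Nearly all counts of this pair of genes therefore came from Calca in the first pool and from Calcb in the second. The Trpv1- nodose pools stood at 51.7% (45.9% to 57.4%) and 93.2% (92.3% to 94.1%), from few counts. These intervals cover counting error only, since reads amplified by PCR are not independent molecules.

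**Figure D2:**
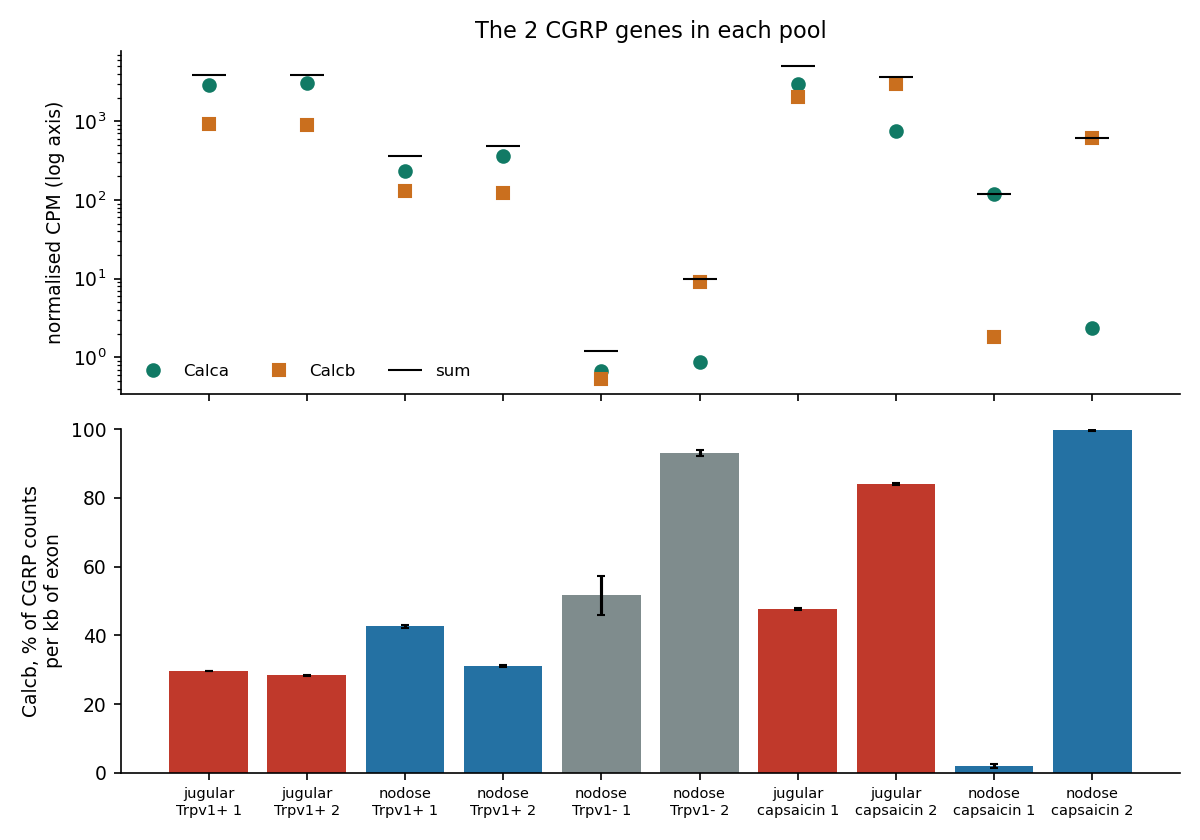
Upper panel, normalised CPM (log axis) of Calca (circles), Calcb (squares) and their sum (dashes) in each pool. Lower panel, the share of Calcb in the Calca and Calcb counts per kilobase of exon (%), with 95% exact binomial intervals for counting error. The capsaicin nodose pools stand at 1.97% and 99.7% and the Trpv1+ jugular pools at 29.6% and 28.4%.

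The comparison of Trpv1+ with Trpv1- nodose neurons asked what sets C-fiber neurons apart within the nodose ganglion. Calca differed between these groups, while the Tac1 levels of the groups overlapped. Calca had a log2 fold change of 8.64 ± 0.58 (edgeR, adjusted p = 0.04996), among 0.0527% of 11386 genes called, all of them higher in Trpv1+ neurons. Trpv1 itself, whose reporter sorted these groups, was at 202 and 118 CPM against 0.0348 and 0.0334 CPM. That difference was set by the selection, so the call of Trpv1 (log2 fold change 12.20, edgeR, adjusted p = 0.0700) does not add to that of Calca. Calcb had a log2 fold change of 4.79 ± 1.47 and did not pass (adjusted p = 0.366), with 0.537 and 8.97 CPM in the Trpv1- pools. The value of Tac1 was 1.14 ± 1.46 (adjusted p = 0.922), and it turned to -0.15 without the first Trpv1+ nodose pool. No gene was called once any 1 of the 4 pools was left out, and the log2 fold change of Calca then ran from 8.28 to 8.95.

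Set against the Trpv1- nodose pools, the Trpv1+ jugular pools were higher in Calca by 11.94 ± 0.29 on the log2 scale (edgeR, adjusted p = 0.0006) and in Tac1 by 11.78 ± 0.41 (adjusted p = 0.00201). Of 11506 genes tested, 0.226% were called, and 0.139% of those tested were called higher in jugular. For Tac1 the call was lost without either Trpv1- pool (adjusted p = 0.207 and 0.128), and the call of Calca was kept in each of the 4 fits that left a pool out. Calcb, at 7.63 ± 1.45, did not pass (adjusted p = 0.288), but it was called without the second Trpv1- pool (10.70, adjusted p = 0.0959). The 3 fits within the Trpv1 selection share pools, so their values are not independent of each other.

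**Figure D3:**
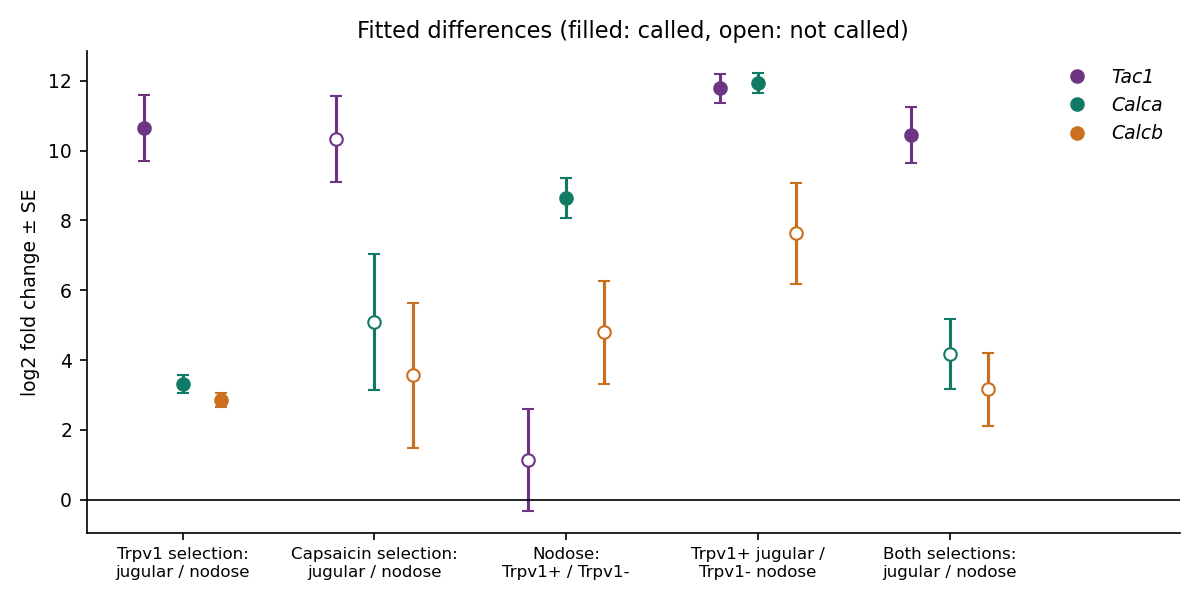
Log2 fold changes (vertical axis) with their standard errors for Tac1 (purple), Calca (green) and Calcb (orange) in 5 comparisons, with filled points for calls of edgeR's quasi-likelihood test and open points for values that were not called. Tac1 lies above 10 in each jugular comparison and at 1.14 in the comparison within nodose, where Calca lies at 8.64.

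With the 8 jugular and nodose C-fiber pools of both selections in 1 fit, and the selection as a covariate, Tac1 was higher in jugular neurons by 10.45 ± 0.81 on the log2 scale (edgeR, adjusted p = 0.000262). Of 11959 genes, 0.577% were called and 0.309% were called higher in jugular. This call was kept without any 1 of the 8 pools (log2 fold change 9.96 to 10.94). Calca (4.17 ± 1.01, adjusted p = 0.170) and Calcb (3.16 ± 1.04, adjusted p = 0.337) did not pass. Calca was called without either Trpv1+ jugular pool (adjusted p = 0.0630 and 0.0591) or without the second capsaicin nodose pool (3.58, adjusted p = 0.00343). Calcb was called without the first capsaicin nodose pool (2.70, adjusted p = 0.00139). The second capsaicin nodose pool is the one with 2.34 CPM of Calca, and the first is the one with 1.79 CPM of Calcb.

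Whether the jugular over nodose difference itself differed between the selections was tested by an interaction term. It was -0.23 ± 1.15 on the log2 scale for Tac1 (edgeR, adjusted p = 0.9998), 1.83 ± 1.75 for Calca (adjusted p = 0.841) and 0.75 ± 1.99 for Calcb (adjusted p = 0.9998), with positive values for a larger difference in the capsaicin selection. None of the 11959 genes was called (0%) by edgeR, 1233 had an unadjusted p under 0.05, and DESeq2 called 1094. The standard errors leave room for differences of several fold in either direction. Leaving out the first capsaicin nodose pool gave a call for Calca (6.84, adjusted p = 0.0365), and leaving out the second gave a call for Calcb (7.83, adjusted p = 0.00652).

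A test of each gene alone, an exact two-sided permutation of the pools within each selection (90 assignments, smallest possible p = 0.0111), compared the 4 jugular with the 6 nodose pools. By this exact permutation test, on the log2(CPM + 1) scale, the difference of means was 8.79 for Tac1 (p = 0.0111), 6.59 for Calca (p = 0.0222) and 5.77 for Calcb (p = 0.0111). All 4 jugular pools lay above all 6 nodose pools for each of the 3 genes, which also held for 2.15% of 7504 genes. These p-values are not adjusted. The 6 nodose pools include the Trpv1- pools, where Calca was at 0.668 and 0.868 CPM, so the contrast mixes ganglion with Trpv1 status. The nodose mean also weighs the Trpv1 selection more than the jugular mean does. The differences of means are therefore not those between C-fiber pools alone.

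The genes whose levels followed each member most closely over the 10 pools were taken by Pearson's r of log2(CPM + 1) among the 7504 genes that reached 10 CPM in both pools of a group. The pools of a group share their ganglion and selection, so these values are a description. Tac1 was followed most closely by Smim5 (r = 0.998), Serpinb1a (0.994) and Serpina11 (0.989). Smim5 was at 34.2 to 116 CPM in the jugular pools and at no more than 0.0834 CPM in the nodose pools, the same on-off pattern as Tac1. Calca was followed by Fxyd2 (0.930), Fam63a (0.926) and Vamp8 (0.902). Fxyd2 was at 1577 to 2833 CPM in the jugular, 805 to 1725 CPM in the C-fiber nodose and 471 to 527 CPM in the Trpv1- nodose pools. Calcb was followed by Tagln2 (0.934), Cd9 (0.897) and Osbpl3 (0.877). The members were not each other's nearest genes, with r = 0.790 between Tac1 and Calca, 0.744 between Tac1 and Calcb and 0.674 between Calca and Calcb.

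Of the other genes of these peptide families, Tac2, Tac4, Adm, Adm2 and Iapp, 0 of 5 reached 10 CPM in both pools of any group. Tac2 and Iapp were at 0 in every pool. Tac4, which encodes hemokinin, was at 8.92 CPM in 1 Trpv1- nodose pool and at no more than 0.0147 CPM elsewhere. Adm2 reached 4.88 CPM in 1 capsaicin jugular pool.

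Of the 6 genes of prohormone processing and amidation, 4 reached 10 CPM in both pools of each jugular group, 6 in the Trpv1+ nodose, 5 in the Trpv1- nodose and 4 in the capsaicin nodose group. In any comparison 0 of 6 were called by edgeR, beside 0% to 0.577% of all genes tested. With shares this low, a list of 6 genes without a call does not show that these genes were alike. Cpe, which trims basic residues from the cut precursor, was at 575 to 1225 CPM in the jugular pools and at 176 to 2483 CPM in the nodose pools. Pam, the enzyme that amidates the C-terminus that substance P and CGRP both need, was at 3.22 and 27.1 CPM in the Trpv1+ jugular pools against 81.7 and 77.5 CPM in the Trpv1+ nodose pools. Among capsaicin-selected neurons Pam was at 143 and 140 CPM in the jugular pools and at 240 and 1436 CPM in the nodose pools. Its log2 fold change over both selections was -2.32 ± 0.71 (edgeR, adjusted p = 0.314). Of the prohormone convertases, Pcsk1 was at 0.0172 to 57.7 CPM in the jugular pools and at 8.04 to 530 CPM in the nodose pools, and Pcsk2 at 31.7 to 238 and at 0.293 to 97.0 CPM, and these ranges overlapped. Pcsk1 reached 10 CPM in both pools of nodose groups only. The median log2 fold change of this list in the Trpv1 selection was -0.81, beside -0.03 for all genes tested.

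Of the 7 genes of granins and dense-core vesicle release, 6 reached 10 CPM in both pools of a group. In the fit to both selections 1 was called in each direction, beside 0.577% of all genes tested. Scg2, the precursor of secretoneurin, was lower in jugular neurons, at 98.5 to 422 CPM against 781 to 1844 CPM in the C-fiber nodose pools. Its log2 fold change was -2.49 ± 0.37 (edgeR, adjusted p = 0.0173). Scg3, which binds granins to the granule membrane, was higher, at 518 to 1077 CPM against 157 to 348 CPM, with a log2 fold change of 1.63 ± 0.33 (adjusted p = 0.0909). The Scg3 call was lost in 7 of the 8 fits that left a pool out (adjusted p up to 0.301), all but the fit without the second capsaicin nodose pool (adjusted p = 0.0941), and with RLE factors in place of TMM (adjusted p = 0.141). The Scg2 call was kept in all 8. In the Trpv1- nodose pools Scg2 was at 159 and 173 CPM and Scg3 at 216 and 194 CPM.

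Receptors of the peptides were scarce in these neurons. Of the 9 genes of the receptor list, only Crcp, which encodes a component of CGRP receptor signalling, reached 10 CPM in both pools of a group. A call needs that level, so only Crcp could be called. It was not, beside at most 0.577% of all genes tested in any comparison. Tacr1, the substance P receptor, was at no more than 0.234 CPM in any pool, and Tacr2 was at 0 throughout. Calcrl and Ramp1, the parts of the CGRP receptor, did not occur together at 10 CPM in any pool. Calcrl was at 40.3 CPM in 1 capsaicin jugular pool and Ramp1 at 56.4 CPM in 1 Trpv1+ nodose pool, each with a replicate below 0.1 CPM. The same capsaicin jugular pool held Ramp3 at 16.7 CPM, and 1 capsaicin nodose pool held Calcr at 32.1 CPM, each with a replicate at 0. Of the 3 peptidases, Ece1 reached 10 CPM in both pools of a group, at 45.6 to 208 CPM in the capsaicin selection. By the same rule only Ece1 could be called, and it was not, beside the same share of all genes. Mme, which encodes neprilysin, and Ace were at no more than 0.0736 CPM in any pool.

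Gfra3 and Trpv1, other markers of peptidergic nociceptors, had different patterns. The C-fiber pools were picked by a Trpv1 reporter or by the response to capsaicin, so the level of Trpv1 is not free of the selection. Gfra3, the artemin receptor, was at 34.4 to 202 CPM in the jugular pools and at no more than 1.02 CPM in the nodose pools. Its log2 fold change over both selections was 7.68 ± 1.88, and it was not called (edgeR, adjusted p = 0.173). Trpv1 was at 17.8 and 25.8 CPM in the Trpv1+ jugular pools, where Calca stood at 2921 and 3022 CPM, and at 202 and 118 CPM in the Trpv1+ nodose pools. In the capsaicin selection Trpv1 was at 223 and 70.6 CPM in the jugular and at 213 and 248 CPM in the nodose pools. Its log2 fold change over both selections was -1.65 ± 0.79 (adjusted p = 0.490).

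Among the 4 markers of non-peptidergic nociceptors, Mrgprd was called higher in the jugular pools over both selections, and P2rx3, Gfra2 and Ret were not called. Of all genes tested, 0.309% were called higher there. Mrgprd, a receptor of the Mas-related family, was at 58.1 to 548 CPM in the jugular pools and at no more than 0.527 CPM in any nodose pool. Its log2 fold change over both selections was 10.97 ± 1.32 (edgeR, adjusted p = 0.00396), and 10.72 (adjusted p = 0.149) without the second capsaicin jugular pool. The jugular pool with the most Mrgprd, at 548 CPM, was the capsaicin jugular pool with the least Tac1 and Calca and the most Calcb.

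**Figure D4:**
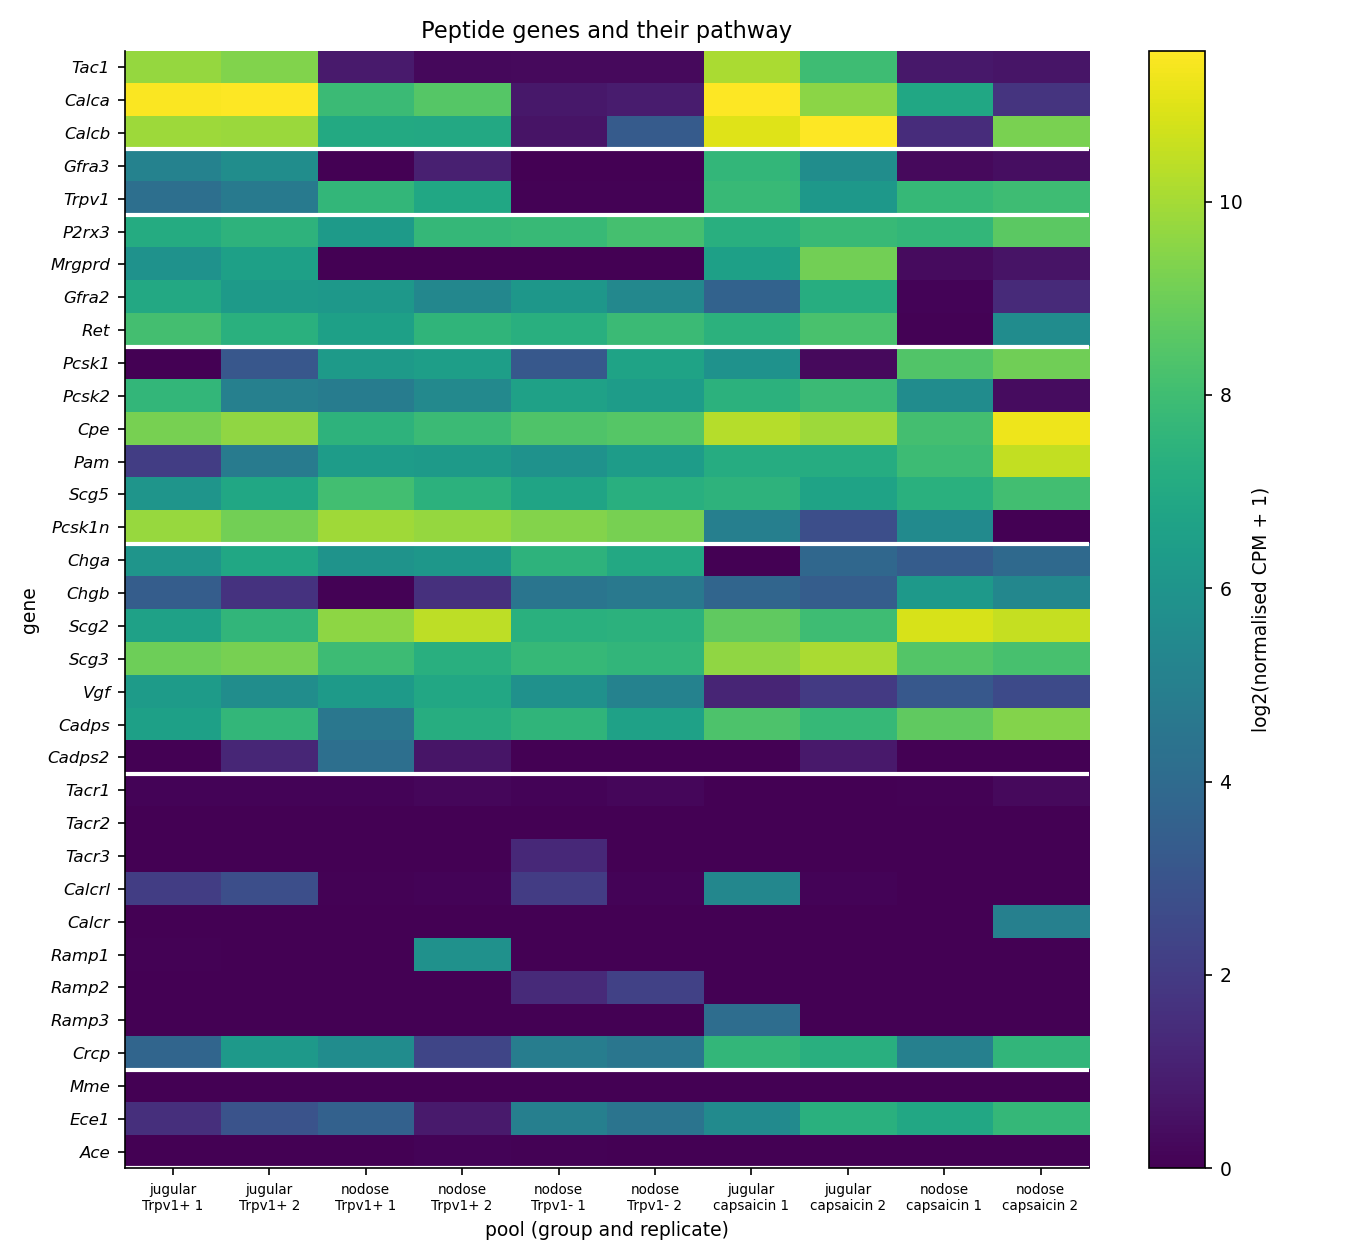
Log2(normalised CPM + 1) of the members and of genes from 6 lists (rows, separated by white lines: members, peptidergic markers, non-peptidergic markers, processing, granule, receptors, peptidases) in the 10 pools (columns). The jugular columns are bright for Tac1, Calca and Calcb, and the receptor rows other than Crcp are dark in nearly all pools.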

How the data were processed

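Pools of single neurons were converted to cDNA with the SMARTer Ultra Low Input kit, amplified by PCR and sequenced as 50-base pairs. Per the labels and the study's methods, the authors aligned reads to mm10 with TopHat2 2.0.9 and Bowtie2 2.1.0.0, and deposited raw counts per gene symbol made with HTSeq, not normalised. The annotation and the strand setting are not given in the sources used here. Of 24421 rows, 27 carried month-like symbols and were kept apart.

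CPM was computed here as counts over DESeq2 size factors of all 10 pools, scaled by the geometric mean total. Each comparison was fitted to its own pools with edgeR 4.0.16 (TMM, filterByExpr, glmQLFTest) in R 4.3.3, with Benjamini-Hochberg adjustment over all genes tested. Standard errors are the log2 fold change over the square root of F. Calls needed an adjusted p no higher than 0.1, a fold of 2 or more and 10 CPM in both pools of a group. DESeq2 1.42.0, RLE factors, no filter, a replicate block, a fit to all pools and leaving out each pool were alternatives. Exact binomial intervals used SciPy 1.17.1, and the exact permutation test went through all 90 assignments in Python 3.11.15. The scripts were tested on simulated counts.

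Named genes were the members, the 3 genes most correlated with each, and listed genes called or reaching 10 CPM in both pools of a group. Others named for their low levels, and the sum of Calca and Calcb, were chosen after their values were seen. Members and lists were chosen with earlier results of these data known. Some listed genes are not reported here.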

Additional observations from a re-analysis of the deposited data

How the results depend on the processing

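Of 186 values of the members under alternatives, 180 kept their direction and 133 kept direction and call. In the Trpv1 selection the log2 fold change of Calca was 3.28 by DESeq2 (adjusted p = 0.110) and 3.31 in a fit to all 10 pools (0.597), and that of Calcb was 2.82 (0.194) and 2.85 (0.620), none called. The genes called were 459 by DESeq2 and 59 without a filter, beside 35. In the capsaicin selection Tac1 was called by DESeq2 (10.26), without a filter (10.32) and in the fit to all pools (10.14), and Calca (5.07) and Calcb (3.55) without a filter. The genes called were 734, 122 and 110, beside 0. For Trpv1+ over Trpv1- nodose, Calca was 8.67 in the fit to all pools (adjusted p = 0.173, not called), Calcb was called by DESeq2 (4.86), and 320 (DESeq2) and 10 (no filter) genes were called, beside 6. For Trpv1+ jugular over Trpv1- nodose, Calcb was called by DESeq2 (7.66), and 537, 47 and 14 (all pools) genes were called, beside 26. Over both selections Calca was called by DESeq2 (4.09), without a filter (4.17) and in the fit to all pools (4.12), Calcb without a filter (3.17), and 1151, 222 and 213 genes were called, beside 69. For the interaction, Calca was called without a filter (1.80), and 1094, 95 and 7 genes were called, beside 0. The cause was not tested.

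With the replicate number as a block, Calcb in the Trpv1 selection (2.85, adjusted p = 0.107) and Calca in Trpv1+ over Trpv1- nodose (8.61, adjusted p = 0.165) were no longer called, and Tac1 in the capsaicin selection was called (10.05, adjusted p = 0.0548). The genes called became 13, 20, 1, 2 and 41 in the 5 comparisons in the order above. Deviations of same-numbered pools were uncorrelated over genes (r from -0.0261 to -0.002). With 2 pools a group this cannot show whether same-numbered pools shared a mouse or a batch.

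With each pool left out in turn, the log2 fold changes ran from 9.98 to 11.96 (Tac1), 3.03 to 3.70 (Calca) and 2.84 to 2.89 (Calcb) in the Trpv1 selection, with 0 genes called. In the capsaicin selection they ran from 8.98 to 11.01, 3.85 to 10.11 and 2.56 to 10.62, with 0 to 29 called (29 and 0 without the first and second nodose pool, 26 and 18 without the first and second jugular pool). For Trpv1+ over Trpv1- nodose they ran from -0.15 to 1.83, 8.28 to 8.95 and 3.88 to 7.86, with 0 called. For Trpv1+ jugular over Trpv1- nodose they ran from 11.59 to 11.98, 11.81 to 12.09 and 6.74 to 10.70, with 1 to 2 called. Over both selections they ran from 9.96 to 10.94, 3.43 to 4.78 and 2.70 to 4.33, with 38 to 89 called (44 and 38 without the first and second capsaicin jugular pool). For the interaction they ran from -1.96 to 0.45, 0.29 to 6.84 and -0.24 to 7.83, with 0 to 195 called (195 without the first capsaicin nodose pool). The interaction of Tac1 changed sign without the second Trpv1+ nodose (0.45), the first Trpv1+ jugular (0.0035), the first capsaicin nodose (0.056) or the second capsaicin jugular pool (0.44), and that of Calcb without the first capsaicin nodose pool (-0.24).

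RLE factors moved the median log2 fold change of all genes by -0.11 in the capsaicin selection, -0.13 over both selections and -0.35 in the interaction, and every member kept its direction and call under them. Mean levels depended on the scaling: Tac1 in Trpv1+ jugular pools was 1101 CPM from plain totals and 1098 from TMM factors, in place of 765. From plain totals Calcb in capsaicin nodose pools was 169 CPM in place of 303, beside 163 in Trpv1+ nodose pools, and in Trpv1- nodose pools Tac1 was 0.359 in place of 0.221, Calca 1.25 in place of 0.768 and Calcb 7.68 in place of 4.76. With 2 pools a group, differences within the spread of the capsaicin nodose pools could not be resolved.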

Other observations

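Piezo2, the channel of touch receptors, was at 44.1 to 92.2 CPM in the 4 jugular pools and at no more than 0.234 CPM in the C-fiber nodose pools, with 10.8 and 8.66 CPM in the Trpv1- nodose pools. Its log2 fold change over both selections was 10.80 ± 1.78 (edgeR, adjusted p = 0.0298), and it was not called without the first or the second capsaicin jugular pool (adjusted p = 0.136 and 0.126). Nefh, the heavy neurofilament of myelinated neurons, was at 538 and 479 CPM in the Trpv1- nodose pools, where the members were lowest in the mean. It was at 78.9 and 168 CPM in the Trpv1+ nodose, 239 and 303 CPM in the Trpv1+ jugular, 57.6 and 99.5 CPM in the capsaicin jugular and 0.167 and 295 CPM in the capsaicin nodose pools.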
